A study of Mus musculus with 24 samples.

Results

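Tal1, Lmo2, Lyl1 and Ldb1, which belong to a blood transcription factor complex, and the repressors Gfi1 and Gfi1b were followed through every deposited peak list of a study of Utx (Kdm6a) loss in mouse bone marrow progenitors. Those 6 genes are among 21900 protein-coding genes, and each was described by the peaks that overlap its RefSeq span or the 50 kb on either side of it (mm10 coordinates). Peaks of all libraries of an assay were merged into regions, which gave 36 of 58677 H3K4me1 regions, 122 of 197241 PU.1 regions and 84 of 79171 ATAC regions. A library was said to hold a region when it had a peak in it. A region was called lost when every control library and no perturbed library held it, and gained in the reverse case.

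The cells were lineage-negative bone marrow cells (HSPCs) of C57BL/6 mice, enriched with a depletion kit. ChIP-seq for the enhancer mark H3K4me1 compared 2 Utx WT with 2 Utx KO libraries, and ChIP-seq for PU.1 compared 3 with 3. ATAC-seq set B held 2 libraries each of Utx WT and Utx KO cells that carried Cas9 and were given the vector empty or with a guide RNA (gRNA) to Smarca4, and set A held 2 libraries each of Utx WT, Cas9 cells with the empty vector or with a Chd4 gRNA. The controls of the ATAC sets therefore also carried Cas9 and a vector. In set A the label describes 7 days in semi-solid medium, 5 days in liquid culture and harvest 6 days after transduction, in wording that names the Smarca4 product. The driver of the Utx deletion, the age of the mice and whether replicates came from separate animals are not given in the sources used here, so p-values measure only the spread between these libraries, which may be technical. Peak lists carry no measure of whether Utx, Smarca4 or Chd4 was removed.

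Tal1 and its relative Lyl1 are basic helix-loop-helix factors that bind DNA together with E proteins. Lmo2 binds no DNA and bridges them to GATA factors, and Ldb1 joins such complexes and can bring distant sites together; the complex is required for blood formation. Gfi1 and Gfi1b are related zinc finger repressors that recruit the demethylase Lsd1 (Kdm1a) with its partner CoREST (Rcor1); Gfi1 is known for its part in granulocyte and stem cell control and Gfi1b for red cells and platelets. PU.1, encoded by Spi1, is an ETS factor of myeloid and lymphoid cells. Utx removes methyl groups from lysine 27 of histone H3 and works in the complexes that place H3K4me1, Smarca4 (Brg1) is the motor of SWI/SNF remodelling complexes, and Chd4 is the motor of the NuRD complex.

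The RefSeq promoter table (GRCm38.p6) had entries for 5 of the 6 genes. The 4 stretches below end 1 base before the RefSeq span, and a peak lay over the adjoining start in every library of all 3 assays. The tabulated Ldb1 starts lie inside its RefSeq span, and no Ldb1 stretch is shown. Capitals mark matches on either strand to GATAA (the core bound by GATA factors), CAGATG (an E-box of the kind bound by Tal1 with an E protein), GAGGAA (an ETS core) or AAATCA (a Gfi1 core). No match overlapped another.
Tal1: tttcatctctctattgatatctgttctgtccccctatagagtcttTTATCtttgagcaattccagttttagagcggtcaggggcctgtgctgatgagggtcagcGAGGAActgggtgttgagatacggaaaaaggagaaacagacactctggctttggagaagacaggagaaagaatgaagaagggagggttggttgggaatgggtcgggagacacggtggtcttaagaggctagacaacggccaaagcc
Lyl1: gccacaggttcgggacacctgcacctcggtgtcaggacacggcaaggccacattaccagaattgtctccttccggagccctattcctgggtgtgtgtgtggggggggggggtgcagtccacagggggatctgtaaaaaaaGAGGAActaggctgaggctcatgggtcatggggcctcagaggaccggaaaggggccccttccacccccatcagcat
Gfi1: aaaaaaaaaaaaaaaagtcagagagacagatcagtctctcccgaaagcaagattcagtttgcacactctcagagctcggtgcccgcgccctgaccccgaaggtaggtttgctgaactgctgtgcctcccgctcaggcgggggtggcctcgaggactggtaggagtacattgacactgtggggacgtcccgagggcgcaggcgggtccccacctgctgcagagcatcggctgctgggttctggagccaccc
Gfi1b: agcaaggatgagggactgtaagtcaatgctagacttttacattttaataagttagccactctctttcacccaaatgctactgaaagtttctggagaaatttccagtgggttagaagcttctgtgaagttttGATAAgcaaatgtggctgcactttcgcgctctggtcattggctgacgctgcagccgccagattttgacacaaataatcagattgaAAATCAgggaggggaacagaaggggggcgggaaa

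The Tal1 stretch is chr4:115056176-115056425 on the plus strand, and it holds 1 GATAA, read as TTATC, and 1 GAGGAA. The Lyl1 stretch is chr8:84701207-84701422 on the plus strand, 216 bases with 1 GAGGAA. The Gfi1 stretch, chr5:107725806-107726055 on the minus strand, holds none of the 4 motifs. The Gfi1b stretch, chr2:28621983-28622232 on the minus strand, holds 1 GATAA and 1 AAATCA. Among 32851 mouse promoters searched over 250 bases, 22.6% hold GATAA, 14.4% CAGATG, 23.3% GAGGAA and 12.4% AAATCA, so these matches are a description of the letters and nothing more.

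The lists differ in length, which bears on every count below. H3K4me1 lists held 43706 to 54654 islands, PU.1 lists 137850 to 171535, and ATAC lists 24833 to 50927 peaks. Each ChIP island carries a whole number in column 4, taken here as its read count although its role is not stated; these sum to between 6928701 and 14212793 per H3K4me1 list and between 20353303 and 27783026 per PU.1 list. ATAC lists hold intervals only, so their depth is unknown and width is the one value a peak has. All 8 genes of a progenitor and blood list (such as Kit, Myb and Spi1) had H3K4me1 and PU.1 in every library, and 7 of 8 an ATAC peak in every library (Mpo in 4 of 12). Cd3g, Ly6g, Alb and Cdh5, which mark other cell types, had an ATAC peak in 0 of 12 libraries, while Cd79a, Ebf1, Col1a1 and Pdgfrb had one in 12 of 12; the part of other cells in the results was not tested.

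The windows were dense in PU.1 and ATAC regions. Gfi1 held 28 PU.1 regions, or 25.7 per 100 kb against a median of 11.9 over all gene windows, which placed it at percentile 99.6; Tal1 (23 regions) stood at 93.4 and Lyl1 (20) at 91.7. In ATAC, Tal1 with 19 regions and Lyl1 with 17 both stood at percentile 97.2 and Gfi1 with 17 at 96.2. Lmo2 (18 PU.1 and 11 ATAC regions), Ldb1 (17 and 11) and Gfi1b (16 and 9) lay nearer the middle, between percentiles 65.2 and 78.0. The numbers of H3K4me1 regions were ordinary, 5 to 7 a gene against a median of 6. These percentiles follow the whole neighbourhood: the Lyl1 window also covers parts of Ier2, Nacc1, Trmt1 and Nfix, the Tal1 window Stil, Pdzk1ip1 and Cyp4x1, and the Gfi1 window Evi5.

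The 3 assays met at the same places. Of the 84 ATAC regions, 97.6% overlapped an H3K4me1 region and 90.5% a PU.1 region, against 80.3% and 73.7% over the ATAC regions of all gene windows. Of the 122 PU.1 regions, 87.7% overlapped H3K4me1 and 56.6% ATAC, against 52.7% and 28.0%. In the other direction the H3K4me1 regions did not stand out for PU.1 (83.3% against 84.2%), and 77.8% overlapped ATAC against 60.7%. All 28 PU.1 regions at Gfi1 and all 20 at Lyl1 lay in H3K4me1 regions; at Ldb1 11 of 17 did. The regions of a window share its base composition and H3K4me1 islands are long, so no test was made of these shares.

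The annotated starts of Tal1 (both), Lyl1, Gfi1 (both) and Gfi1b had a peak in all 12 ATAC, 6 PU.1 and 4 H3K4me1 libraries. So did 2 of the 3 Ldb1 starts. The RefSeq table gives no strand for Lmo2, so its distances run from the end of its span with the lower coordinate; that end had PU.1 and H3K4me1 in every library but an ATAC peak over it in 0 of 12. The Lmo2 ATAC region with the greatest mean width lay 10.5 kb outside that end, chr2:103944644-103947444, and was held by all 12 libraries. Its strongest PU.1 region lay 10.7 kb inside the gene, chr2:103968601-103973199, where column 4 was 761, 887 and 977 in Utx WT and 1058, 739 and 957 in Utx KO. The Gfi1 start region, chr5:107723194-107727242, was its widest, at 3980 and 3874 bp with the empty vector in set B and 3814 and 3926 bp in Utx KO.

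**Figure D1:**
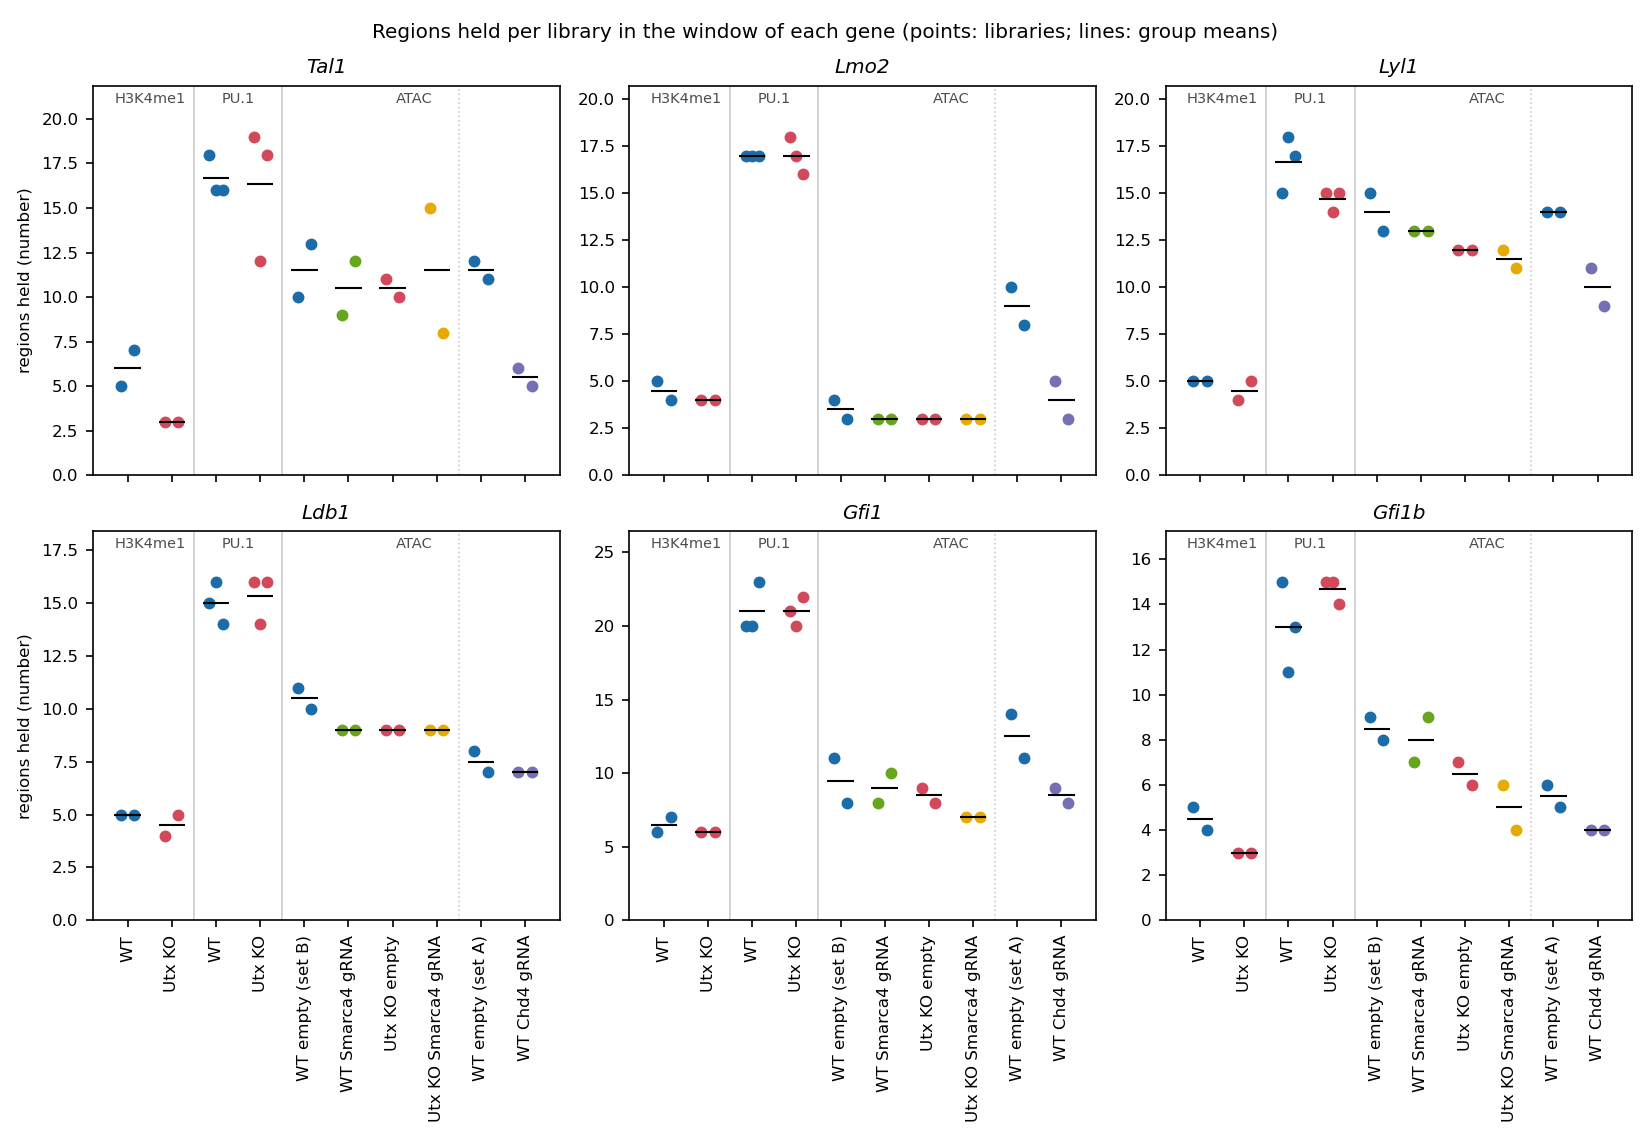
Number of regions held in the window of each gene (vertical axis) by each library (points, with lines at group means) in the H3K4me1, PU.1 and ATAC groups along the horizontal axis; solid lines part the assays and a dotted line parts ATAC sets B and A. The Tal1 panel shows 5 and 7 H3K4me1 regions in WT against 3 and 3 in Utx KO, and 12 and 11 ATAC regions with the empty vector against 6 and 5 with Chd4 gRNA.

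H3K4me1 differed in opposite directions at Tal1 and Gfi1 between Utx KO and WT. As a share of each list, the mark at Tal1 was lower in both Utx KO libraries and 3 of 5 WT regions were lost, at Gfi1 it was higher in both and no region was lost, and at Lmo2, Lyl1 and Gfi1b it was lower by less. Over the 6 genes the WT libraries held 31 and 32 regions and the KO libraries 24 and 26. The groups did not overlap; the difference of -6.5 had an exact permutation p of 0.333 (two-sided), the smallest that 2 against 2 can give. Lost were 4 of the 28 regions held by both WT libraries, or 14.3%, against 17.1% of all H3K4me1 regions. Gained were 0 of 24, against 3.98%. Both shares are under the background, so the losses as a count say nothing particular about these genes. Without WT replicate 1 the lost regions were 7 of 32, and without WT replicate 2 they were 7 of 31. Here and below, leaving out a library makes the rule looser for every region, and the share of all regions under it is not given. Such counts show how far the calls move and nothing particular about these genes.

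At Tal1 the WT libraries held 5 and 7 regions and both KO libraries held 3. The lost regions were chr4:115034401-115036199, 20.2 kb before the start within Stil, chr4:115078001-115083599, 21.6 kb after it, and chr4:115101401-115104399, 45.0 kb after it. Their column 4 in WT was low, at 50 and 75 for the first, 82 and 144 for the second and 51 and 89 for the third. Gfi1b lost 1 region, chr2:28644601-28649599 in Tsc1, 22.6 kb before the start, with 58 and 122 in WT, and its held regions went from 5 and 4 to 3 and 3. Tal1 and Gfi1b were the genes of the 6 with fewer held regions in both KO libraries than in either WT library, a pattern seen at 31.5% of gene windows. Islands over the start were kept at all 6 genes.

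To set the libraries on one scale, the column 4 sum of a window was divided by the list's total and given in parts per 1000000 (ppm). At Tal1 this share was 220 and 223 ppm in WT and 113 and 126 in Utx KO. The groups lay far apart compared with the spread inside each, at 0.54-fold (log2 -0.89), percentile 4.3 of 17170 gene windows whose median log2 was 0.07. The sums themselves also did not overlap, with 1525 and 3167 in WT against 879 and 1085 in KO. The islands covered 48392 and 63593 bp in WT and 21593 and 32993 bp in KO. Column 4 per covered kb, unscaled, overlapped (31.5 and 49.8 against 40.7 and 32.9). Extent and strength of the mark cannot be told apart from called islands. Both Tal1 regions kept by all 4 libraries were lower, at 0.58-fold over the gene and 0.46-fold 28.2 kb after the start towards Pdzk1ip1; 19.6% of all kept regions were lower in this sense.

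At Gfi1 the share was 249 and 262 ppm in WT and 547 and 409 in Utx KO. Both KO values lay above both WT values, at 1.87-fold (log2 0.90), percentile 95.9. All 6 kept regions were higher, by 1.58-fold to 2.39-fold, where 38.6% of all kept regions were. Covered bases were 58390 and 76992 in WT and 88989 and 86193 in KO, again without overlap. The unscaled sums do overlap, at 1728 and 3723 in WT and 4271 and 3526 in KO, because the list of WT replicate 2 totals 14212793 against 6928701 to 8629872 in the other lists; the separation of the groups at Gfi1 thus rests on the scaling, and at Tal1 it does not. With 2 libraries a group no permutation test can reach 0.05.

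The other 4 genes differed less. The Lmo2 share was 489 and 509 in WT and 369 and 391 in KO, 0.76-fold, and the Gfi1b share was 292 and 254 against 219 and 234, 0.83-fold. At Lyl1 it was 501 and 431 against 369 and 427, 0.85-fold, in groups that barely part. That Lyl1 sum joined regions that went opposite ways: the island over its start, chr8:84695801-84710199, was 1.5-fold higher and the island 17.9 kb downstream in Nfix, chr8:84719401-84746999, was 0.54-fold, so within 10 kb of the gene the log2 difference turned to 0.20. Ldb1 overlapped, with 244 and 225 against 212 and 235. Lower shares without overlap were seen at 24.6% of all gene windows and higher ones at 35.2%. Among Tal1, Lmo2, Lyl1, Ldb1, Gfi1 and Gfi1b, 4 were lower and 1 was higher. Lower shares were thus more frequent among these genes than over all windows, and higher ones less frequent. Whether this count goes beyond the background was not tested. By the size of the difference, Tal1 and Gfi1 lay toward the ends of the range.

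**Figure D2:**
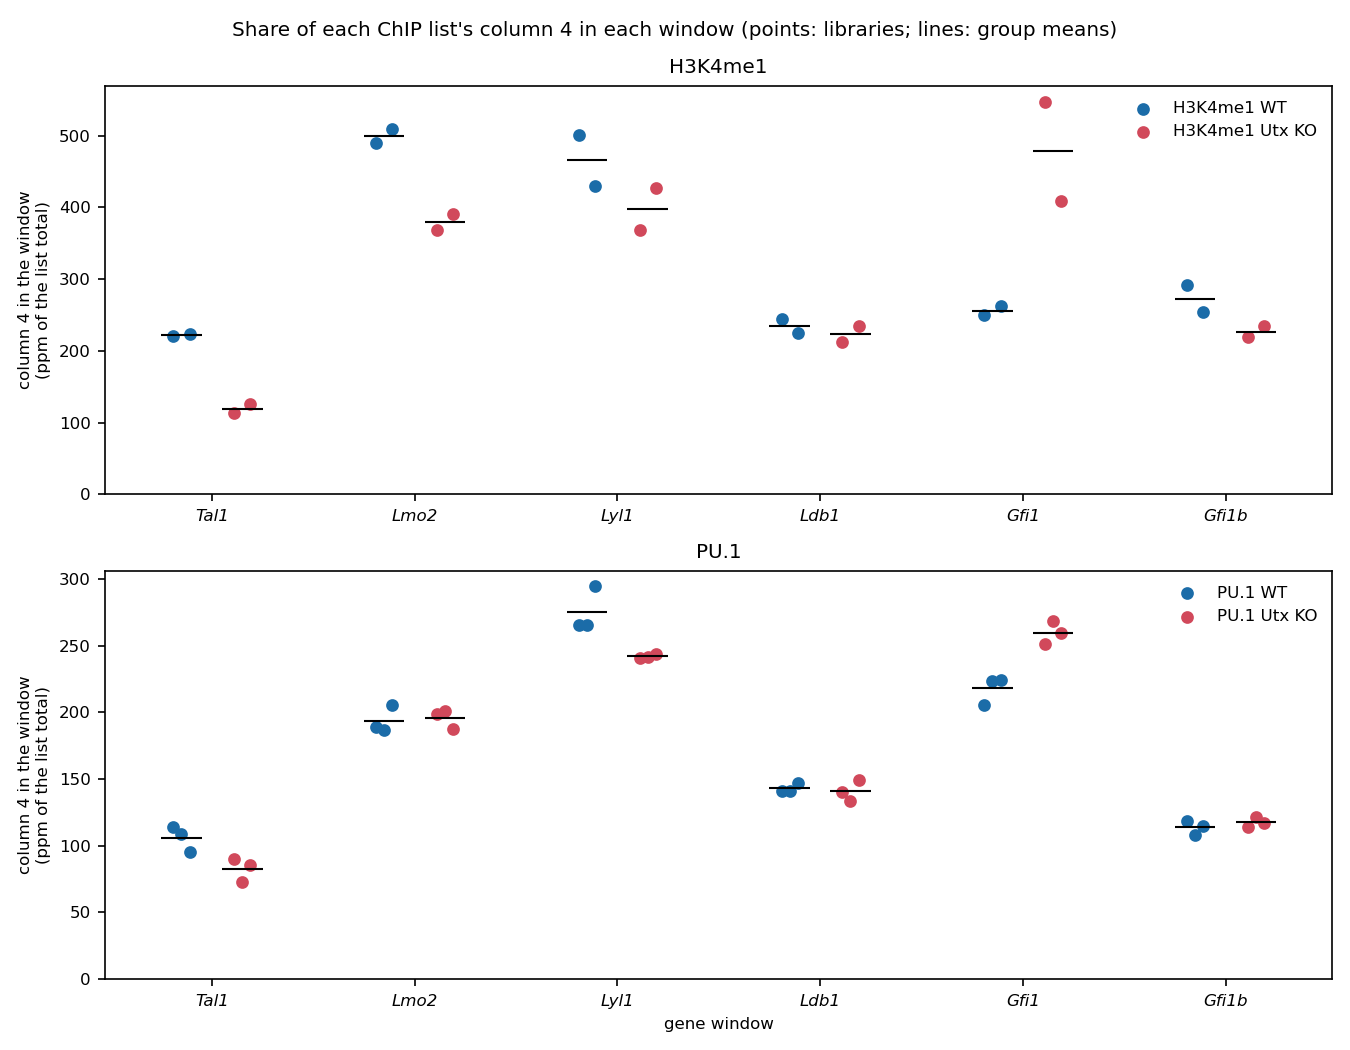
Share of each ChIP list's column 4 that falls in the window of each gene, in ppm of the list total (vertical axis), for each library (points, with lines at group means); the upper panel shows H3K4me1 and the lower PU.1, with WT in blue and Utx KO in red. Tal1 and Lyl1 are lower and Gfi1 is higher in Utx KO in both panels without overlap of the groups.

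**Figure D3:**
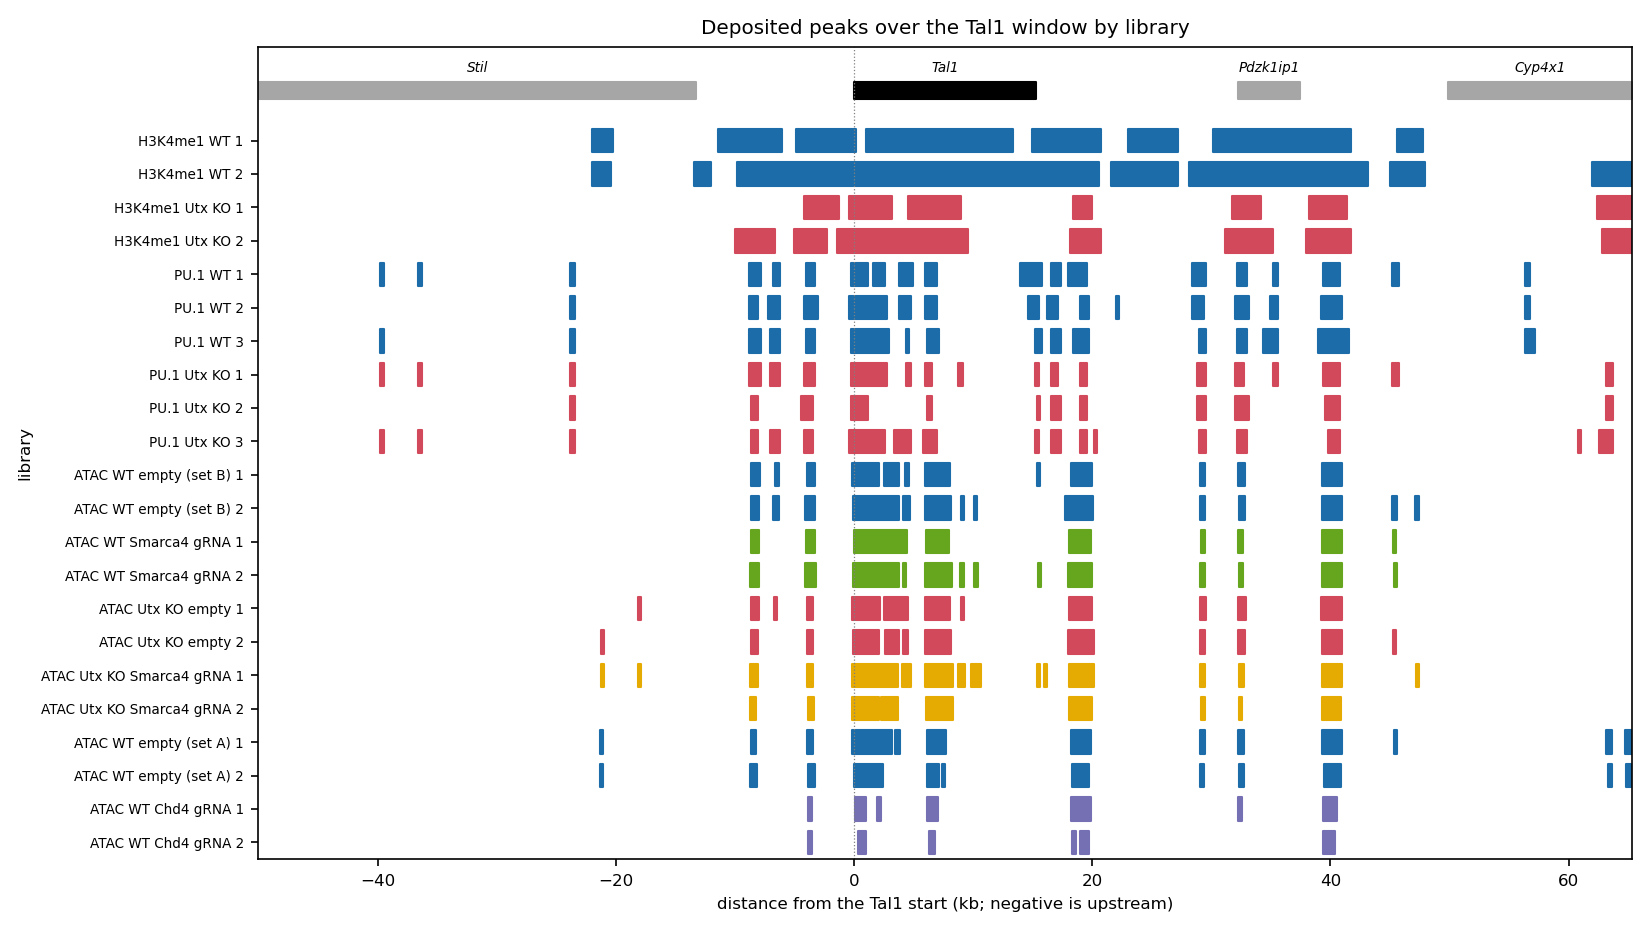
Deposited peaks across the Tal1 window in each of 22 libraries (rows), against the distance from the Tal1 start in kb; bars are peaks as wide as deposited, with very narrow ones drawn at a minimum width, and gene spans are at the top. The Utx KO rows lack the H3K4me1 islands 21.6 and 45.0 kb after the start, and the Chd4 gRNA rows lack the ATAC peaks 7.9 kb before and 29.0 kb after it.

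PU.1 occupancy kept nearly all its regions in Utx KO cells, with a lower share at Tal1 and Lyl1 and a higher one at Gfi1. The WT libraries held 100, 98 and 100 regions over the 6 genes and the KO libraries 104, 92 and 101. The groups overlapped (difference -0.33, two-sided exact permutation p = 1, where 3 against 3 can give 0.1 at best). Lost was 1 of the 88 regions held by all WT libraries, or 1.14% against 2.05% of all regions, and gained were 2 of 86, or 2.33% against 4.78%. Without KO replicate 2, whose list has the lowest column 4 total and holds 12 regions at Tal1 against 19 and 18 in the other KO libraries, the difference became 3.17. Such small counts of lost regions moved to 3 without KO replicate 1 and to 2 without WT replicate 2.

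The lost PU.1 region, chr4:115112801-115113599, lay in Cyp4x1 56.4 kb after the Tal1 start and was weak in WT, with column 4 of 30, 35 and 33. One gained region lay close by, chr4:115119001-115120199 at 62.6 kb, with 102, 88 and 131 in KO. The other, chr19:46083201-46083999 in Nolc1, 37.9 kb before the Ldb1 start, had 61, 37 and 105. All 3 lie in neighbouring genes and none in the span of the 6 genes.

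Tal1 held a PU.1 share of 114, 108 and 95.5 ppm in WT and 89.9, 72.5 and 85.7 in KO. All KO values lay below all WT values, at 0.78-fold (log2 -0.36), percentile 4.6 of 19101 windows. Of 11 kept Tal1 regions 7 were lower and 0 higher, against 22.9% lower and 18.4% higher over all kept regions. They include the strongest PU.1 region of the window, chr4:115074401-115076199, 18.0 kb after the start, in the stretch downstream of Tal1 known for its stem cell enhancer, where column 4 was 473, 393 and 448 in WT and 346, 270 and 307 in KO. Those values do not overlap even before scaling, and relative to the list totals the region stood at 0.69-fold. Over the start, chr4:115056001-115059399, column 4 was 349, 427 and 374 against 405, 166 and 325, which overlap before scaling and part after it at 0.75-fold. Covered bases were 17181, 16584 and 16584 in WT and 14581, 9188 and 14782 in KO; column 4 per covered kb overlapped (143, 162 and 145 against 171, 160.5 and 142.5).

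Lyl1 had PU.1 shares of 265.5, 266 and 295 in WT and 241, 241 and 244 in KO, 0.88-fold without overlap. Of its 12 kept regions 6 were lower and 0 higher. None of the lower regions lay in Lyl1: they were 18.7 kb before the start in Nacc1 and 20.9 to 42.5 kb after it in Nfix. The strongest Lyl1 region spanned the gene and its start, chr8:84698801-84709599, with column 4 of 1859, 2075 and 2361 in WT and 2322, 1709 and 2075 in KO, at percentile 99.1 or above in each list. It overlapped between the genotypes, at 0.96-fold relative to the list totals. At Gfi1 the share was 206, 224 and 225 in WT and 251, 269 and 260 in KO, 1.19-fold at percentile 81.1, with 8 of 17 kept regions higher and 1 lower. The Gfi1 start region, chr5:107722401-107727799, was 1.27-fold higher relative to the totals, while the strongest region of that window, chr5:107707801-107709799, was the lower one at 0.87-fold. Unscaled, the window sums at Gfi1 overlapped, at 4453, 5529 and 5654 against 6973, 5467 and 6387, as did those at Tal1 (2462, 2682 and 2404 against 2497, 1475 and 2107). Lower shares without overlap were found at 20.9% of gene windows and higher ones at 26.9%.

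Lmo2, Ldb1 and Gfi1b overlapped between the genotypes in PU.1 share, at 1.01-fold, 0.98-fold and 1.03-fold. The values at Lmo2 were 189, 187 and 205 in WT against 198.5, 201 and 187 in KO, and those at Ldb1 were 141, 141 and 147 against 141, 133 and 149. The strongest PU.1 region of Ldb1 lay inside the gene over its middle start, chr19:46037401-46042199, with 600, 631 and 604 against 623, 498 and 601. That of Gfi1b lay over its start, chr2:28621201-28622999, with 678, 704 and 671 against 828, 684 and 789. Neither difference is clear of the spread between libraries. For the windows of Tal1, Lyl1 and Gfi1, the H3K4me1 and PU.1 shares thus lay on the same side in separate sets of libraries of the same genotypes. At Lyl1 both differences were smaller than at Tal1, at 0.85-fold and 0.88-fold. Over the Lyl1 start the assays did not agree: H3K4me1 was 1.5-fold higher and PU.1 overlapped at 0.96-fold. Whether agreement between the shares of a window is more frequent here than over all gene windows was not tested.

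**Figure D4:**
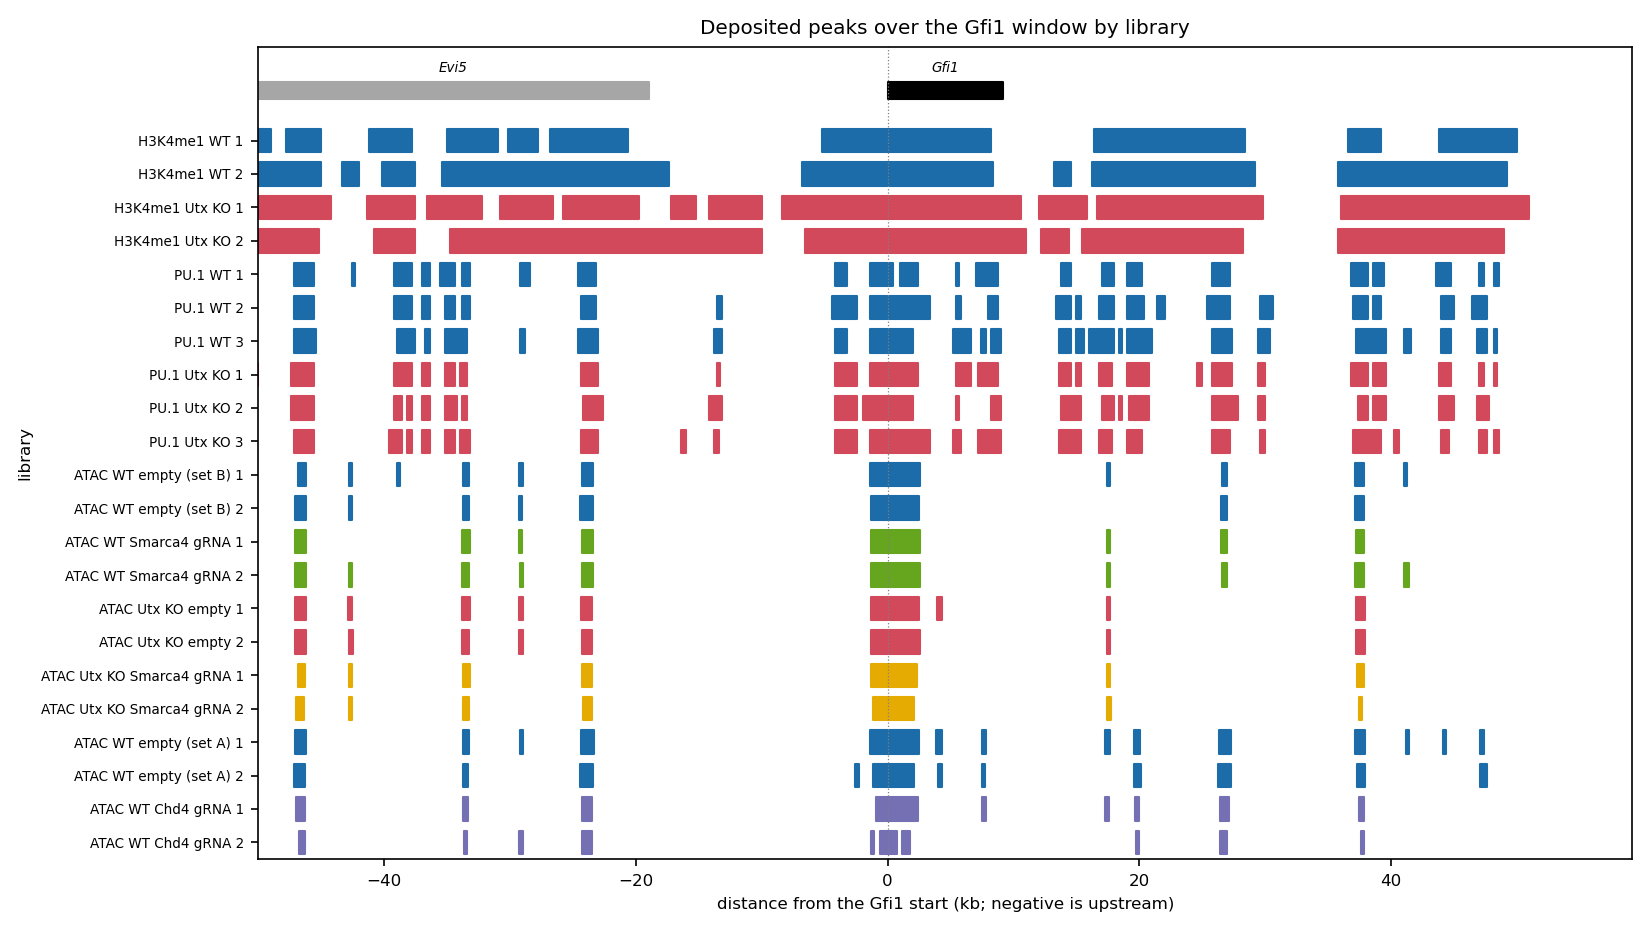
Deposited peaks across the Gfi1 window in each of 22 libraries (rows), against the distance from the Gfi1 start in kb, with gene spans at the top; bars are peaks as wide as deposited, very narrow ones at a minimum width. The ATAC peak 26.3 kb after the start is present in the 8 Utx WT rows and in none of the 4 Utx KO rows.

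In ATAC-seq, Utx KO cells with the empty vector kept most open regions of the 6 genes. WT libraries held 60 and 55 regions and KO libraries 51 and 48, a difference of -8 (two-sided exact permutation p = 0.333, the smallest possible). The groups did not overlap, but the KO lists are shorter, with 40477 and 41024 peaks against 50845 and 50927, and with all lists trimmed to the same number of the widest peaks the difference was 1.5 in the other direction. Lost were 4 of 51 regions, or 7.84% against 15.3% of all regions, and gained were 0 of 46, against 3.19%. Trimmed to equal length, 2 of 45 were lost and 2 gained. Without WT replicate 2 the lost were 12 of 60. The shares of all regions under these settings are not given, so these counts are not read as a result about the 6 genes. Lyl1 (15 and 13 to 12 and 12), Ldb1 (11 and 10 to 9 and 9) and Gfi1b (9 and 8 to 7 and 6) held fewer regions without overlap, as did 43.4% of gene windows.

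The lost region at Gfi1, chr5:107698508-107699540, lay 26.3 kb after the start in no annotated gene. Its width was 438 and 437 bp with the empty vector and 491 and 420 bp with Smarca4 gRNA in Utx WT of set B, and in set A 946 and 982 bp with the empty vector and 778 and 542 bp with Chd4 gRNA. All 8 Utx WT libraries held it and none of the 4 Utx KO libraries did. PU.1 occupied this place in both genotypes, at chr5:107698001-107700399, with column 4 of 353, 447 and 478 in WT and 584, 494 and 585 in KO. It was thus higher in the KO libraries without overlap, at 1.29-fold relative to the list totals, as were 18.4% of all kept PU.1 regions. The region was picked out after its values were seen, and ChIP and ATAC libraries were prepared from separate cells.

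At Gfi1b the lost region, chr2:28591476-28591806, 30.2 kb after the start, was held by the 4 Utx WT libraries of set B (241, 200, 200 and 331 bp) and by no Utx KO library, but set A, all Utx WT, did not hold it either. The lost Lyl1 region, chr8:84699133-84700713, lay 0.7 kb before the start within Trmt1. It was 306 and 324 bp in Utx WT with the empty vector in set B. Every Utx WT library of sets B and A held it, as did 1 of 2 Utx KO libraries with Smarca4 gRNA, at 302 bp. At Ldb1 the lost region, chr19:46050518-46050809, 5.2 kb before the start, was 200 and 292 bp in WT with the empty vector and was seen in no other library. The median peak width was 441 and 499 bp in the Utx WT, empty-vector lists of set B. In these lists each lost region, that at Gfi1 included, was narrower than the median.

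Regions kept in all 4 libraries were narrower in Utx KO in 17 of 45 cases, against 42.7% of all kept regions. As a share of the bases each list covers, Tal1 (1.19-fold), Lyl1 (1.12-fold), Ldb1 (1.16-fold) and Gfi1 (1.20-fold) were higher in both KO libraries than in either WT library, as were 38.1% of gene windows. In bases, the Tal1 window covered 12476 and 14753 bp in WT and 13197 and 12449 bp in KO, which overlap. Of 8 kept Tal1 regions 2 were narrower, 1 was wider and the others overlapped. The narrower ones, picked out after their values were seen, lay before the start: chr4:115052305-115053216, 3.2 kb before it, was 725 and 782 bp in WT and 508 and 516 bp in KO (0.68-fold), and the region 7.9 kb before it was 785 and 685 bp against 672 and 629 bp (0.89-fold). The PU.1 share, in libraries that were prepared separately, was 0.76-fold at the region 3.0 kb and 0.75-fold at the region 7.8 kb before the start. This was not particular to the narrower regions: of 11 kept Tal1 PU.1 regions 7 were lower and 0 higher. Where ATAC width overlapped, PU.1 was also lower over the start (0.75-fold) and 5.8, 18 and 39 kb after it (0.69-fold, 0.69-fold and 0.78-fold).

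With Smarca4 gRNA in Utx WT cells the numbers of open regions at the 6 genes overlapped with those of the empty vector. The empty-vector libraries held 60 and 55 regions and the Smarca4 gRNA libraries 49 and 56 (difference -5, two-sided exact permutation p = 0.667). With lists of equal length the difference turned to 0.5 more regions with the guide. These are the same empty-vector libraries as in the comparison of Utx KO with WT. Lost were 2 of 51, or 3.92% against 8.17%, and gained 0 of 49, against 1.38%. Lost regions numbered 7 of 60 without WT empty-vector replicate 2 and 4 of 51 without Smarca4 gRNA replicate 2, so these small counts are not read as a result about the 6 genes. Ldb1, from 11 and 10 regions to 9 and 9, was the gene of the 6 with fewer and no overlap, as were 28% of gene windows.

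The lost regions were that of Ldb1 named above and one at Tal1, chr4:115049602-115050121, 6.3 kb before the start, which was 352 and 516 bp with the empty vector and 210 bp in 1 Utx KO library. The Tal1 start region, chr4:115056251-115061253, was 3836 and 4439 bp with the empty vector and 4421 and 4134 bp with the guide. Kept regions were narrower in 10 of 47 cases, against 23.7% of all.

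In Utx KO cells the Smarca4 gRNA libraries held 52 and 42 regions against 51 and 48 with the empty vector (difference -2.5, two-sided exact permutation p = 1); those empty-vector libraries are the KO side of the comparison with WT above. The guide libraries differed more from each other than from the controls, with 15 and 8 regions at Tal1, in lists of 35975 and 29930 peaks. Without guide replicate 2 the difference was 2.5, and with lists of equal length it was 1.0. Lost were 2 of 46 regions, or 4.35% against 11.1%, and gained 0 of 41, against 0.488%; at equal length 0 were lost. Without the empty-vector replicate 2 the lost regions were 5 of 51, without guide replicate 1 they were 4 of 46, and without guide replicate 2 there were 6 gained of 52. These counts have no share of all regions beside them and are not read as a result about the 6 genes.

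Gfi1 (9 and 8 regions to 7 and 7) was the gene with fewer and no overlap, as were 24.8% of gene windows. Its lost region, chr5:107754812-107755126 in Evi5, 29.0 kb before the start, was 274 and 313 bp with the empty vector. The lost Gfi1b region, chr2:28618552-28619268, lay in the gene 2.7 kb after the start; it was 317 and 230 bp in Utx KO with the empty vector and was held by all 8 Utx WT libraries at 329 to 717 bp, so only the Utx KO, Smarca4 gRNA libraries lacked it. Of 7 kept Gfi1 regions 6 were narrower with the guide, and over the 6 genes 13 of 41 were, against 35.4% of all.

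As a share of covered bases Tal1, Lmo2, Lyl1 and Ldb1 were higher with the guide, by 1.13-fold to 1.28-fold, as were 36.1% of windows, and Gfi1 was lower at 0.94-fold, as were 16.3%. A difference of the guide's effect between the genotypes was not shown: over the 6 genes the same-numbered differences were -11 and 1 in Utx WT and 1 and -6 in Utx KO (2.5 apart, two-sided exact permutation p = 1). At Ldb1 they were -2 and -1 against 0 and 0 (exact permutation p = 0.333, the smallest possible).

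Chd4 gRNA gave the largest difference in open regions of the 4 ATAC comparisons. By number of regions it was largest at Tal1 (mean 11.5 to 5.5), with Lmo2 (9 to 4) close to it. Empty-vector libraries of set A held 64 and 56 regions over the 6 genes and Chd4 gRNA libraries 42 and 36 (difference -21, two-sided exact permutation p = 0.333, the smallest possible). Tal1 went from 12 and 11 to 6 and 5, Lmo2 from 10 and 8 to 5 and 3, Lyl1 from 14 and 14 to 11 and 9, Gfi1 from 14 and 11 to 9 and 8, and Gfi1b from 6 and 5 to 4 and 4. Ldb1, with 8 and 7 against 7 and 7, overlapped. Fewer regions without overlap, as in 5 of the 6 genes, were seen at 49.4% of all gene windows.

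Lost were 13 of 53 regions, or 24.5% against 18.7% of all regions, and gained 0 of 35, against 0.229%. The Chd4 gRNA lists are shorter, with 34429 and 24833 peaks against 48687 and 41480. With each list trimmed to its widest peaks at equal length, 0 of 31 were lost, where 5.34% of all were, so the losses cannot be told apart from the shorter lists. Without empty-vector replicate 2 the lost regions were 21 of 64.

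Tal1 accounted for 5 of the 13. Those nearest the gene were chr4:115047684-115048546, 7.9 kb before the start (433 and 516 bp), and chr4:115085457-115085964, 29.0 kb after it (421 and 317 bp). Both were held by all 8 libraries of set B as well, so among 12 ATAC libraries the Chd4 gRNA libraries alone lacked them. The other 3 were chr4:115035133-115035413 in Stil (202 and 234 bp) and chr4:115119546-115120102 and chr4:115121194-115121728 in Cyp4x1 (525 and 400 bp, and 535 and 392 bp). The first of the Cyp4x1 pair overlaps the PU.1 region gained in Utx KO.

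What remained of Tal1 was also narrower. The start region measured 3828 and 2447 bp with the empty vector and 1341 and 704 bp with Chd4 gRNA, and 4 of 5 kept Tal1 regions were narrower. Covered bases in the window were 12111 and 9335 against 5716 and 3432. As a share of all covered bases, Tal1 was lower at 0.71-fold (percentile 6.0 of 16092 windows) and Lmo2 at 0.87-fold, a direction without overlap found at 15.9% of windows. The median log2 over all windows was 0.11, so the share does not remove the effect of list length. Whether the lower share at Tal1 goes beyond that effect was not tested. Ldb1 at 1.18-fold and Gfi1 at 1.05-fold were higher without overlap, as were 37.9% of windows, and Lyl1 and Gfi1b overlapped. Over the 6 genes 26 of 35 kept regions were narrower, against 70.6% of all, a share near the background.

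Lmo2 lost 3 regions: chr2:103955076-103955403, 2.5 kb outside the end of the span (256 and 328 bp), chr2:103958251-103958489, 0.3 kb inside it (200 and 211 bp), and chr2:103978974-103979523, 21.1 kb inside (550 and 352 bp). No set B library held any of these; set B libraries held 3 or 4 regions at Lmo2. The sets were made and called separately and the labels do not say how the cells differ, so a difference between sets cannot be told apart from that handling.

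Lyl1 lost chr8:84685975-84686762, 14.7 kb before the start (305 and 396 bp), and chr8:84697721-84698109, 3.3 kb before it (336 and 205 bp). Gfi1 lost chr5:107678198-107678703, 47.1 kb after the start (310 and 499 bp), and chr5:107721485-107721997 in the gene (513 and 293 bp). Gfi1b lost chr2:28585209-28585477, 36.5 kb after the start (200 and 213 bp), and its start region went from 856 and 564 bp to 292 and 211 bp. Ldb1 lost none, and its start region went from 1086 and 900 bp to 911 and 449 bp, groups that overlap. Lyl1 and Gfi1 kept wide start regions, with 4127 and 3556 bp against 3014 and 2639 bp at Lyl1 and 3943 and 3238 bp against 3396 and 2209 bp at Gfi1.

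**Figure D5:**
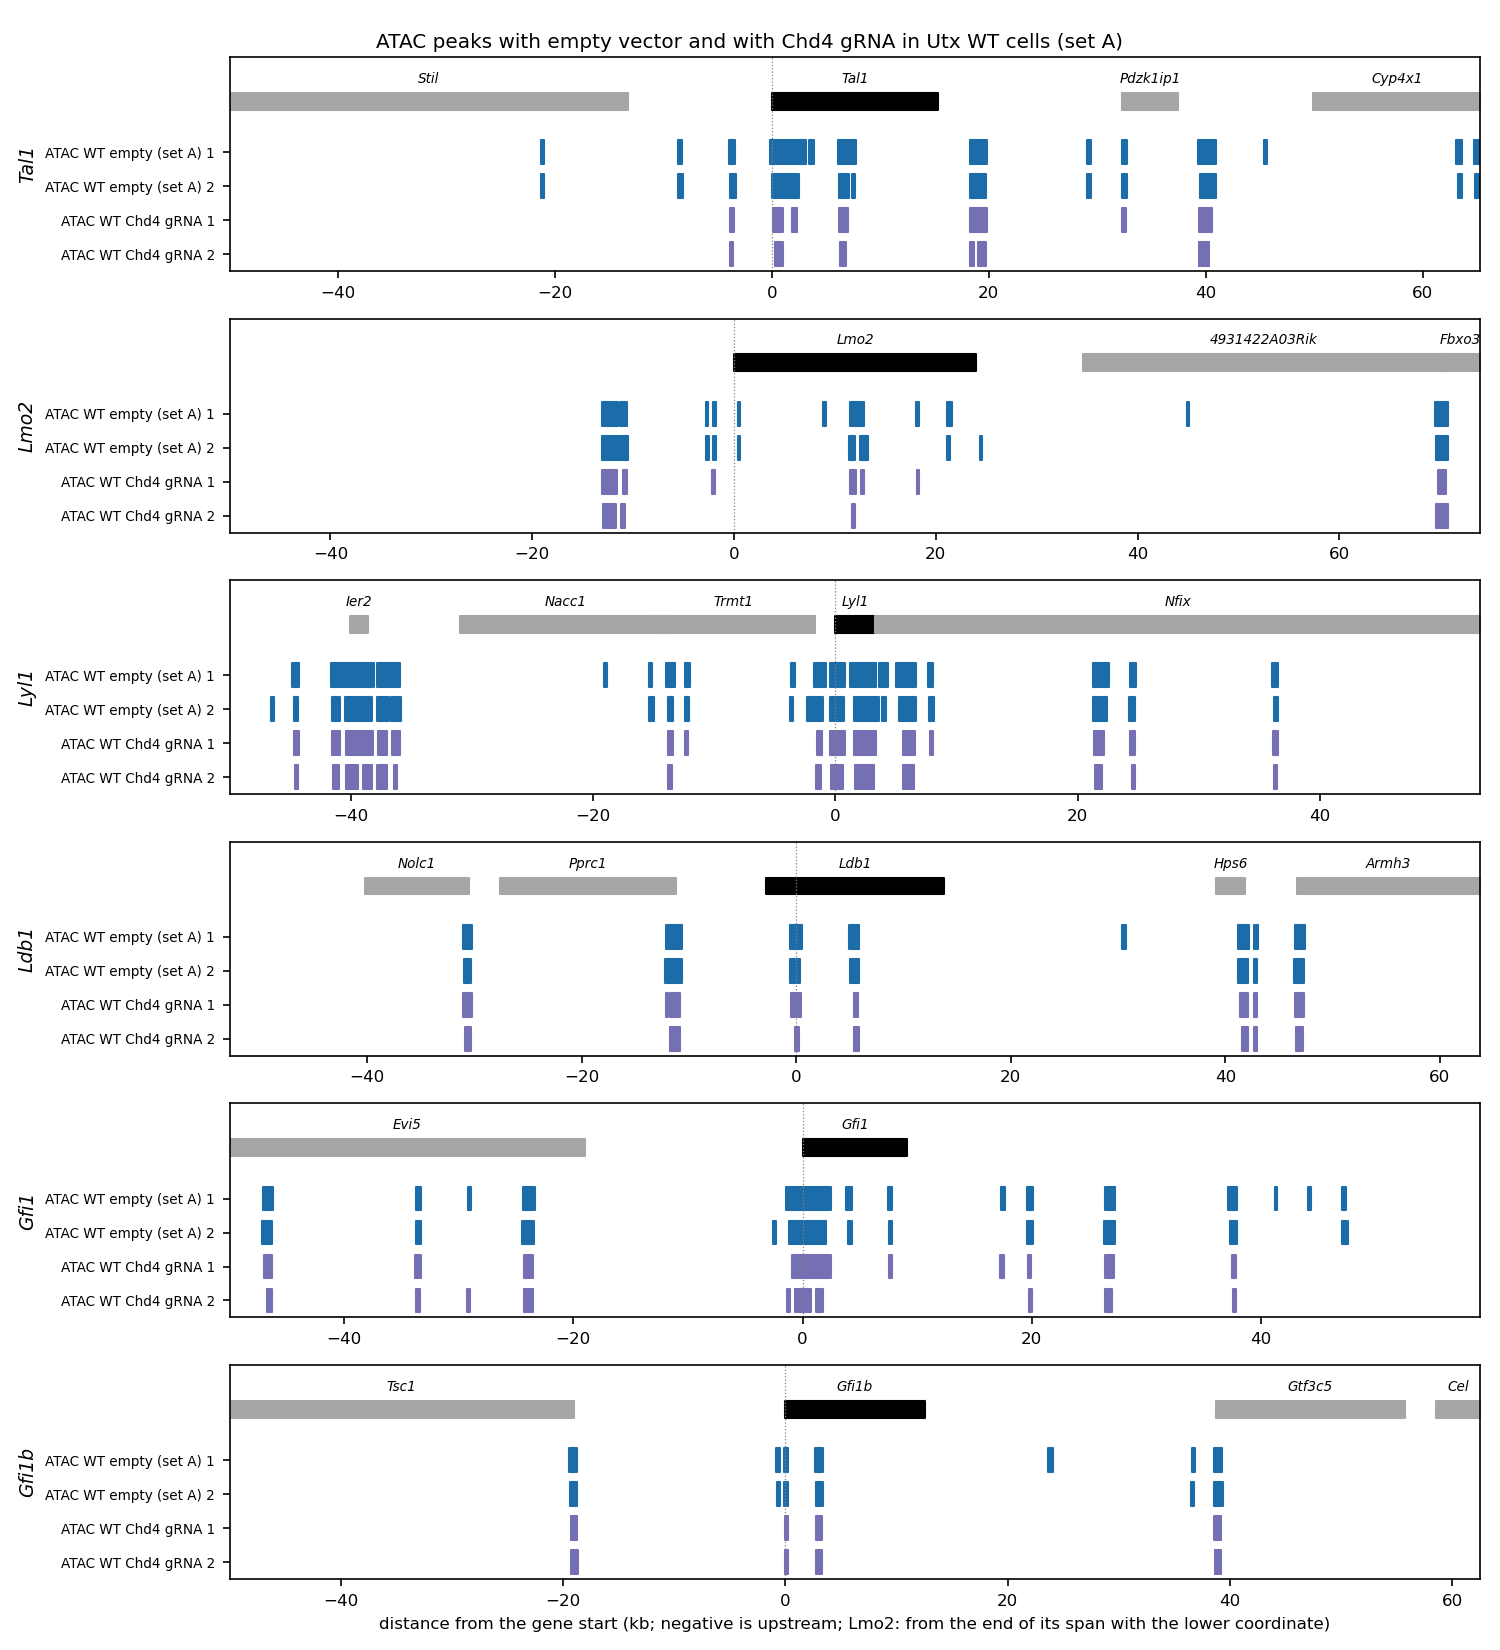
ATAC peaks of the 4 set A libraries (rows) across the windows of the 6 genes (panels), against the distance from each gene's start in kb, with the empty vector in blue, Chd4 gRNA in purple and gene spans at the top of each panel. At Tal1 the Chd4 gRNA rows hold 6 and 5 regions against 12 and 11, and at Ldb1 7 and 7 against 8 and 7.

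Partners of these factors were taken from a list of 20 genes: GATA factors and their cofactor (Gata1, Gata2, Zfpm1), E proteins (Tcf3, Tcf4, Tcf12), Ldb1-binding SSBP proteins (Ssbp2, Ssbp3, Ssbp4), corepressors (Cbfa2t2, Cbfa2t3, Kdm1a, Rcor1, Hdac1, Hdac2), and Runx1, Fli1, Erg, Klf1 and Lmo4. In Utx KO, 14 of the 20 windows had a lost H3K4me1 region against 43.5% of all gene windows, and 5 had a gained one against 9.82%. Ssbp3 lost the most, 4 of 13. The H3K4me1 share was lower without overlap at 9 of the 20 windows, against 24.6% of all gene windows, and higher at 4, against 35.2%. Its median log2 was -0.11 against 0.07 over all windows. Whether these counts go beyond the background was not tested. For PU.1, 4 windows had a lost region against 16.9% and 13 a gained one against 30.7%, with Tcf12 gaining 5 of 41; counted per region, the partners lost 1.65% against 2.05% and gained 4.73% against 4.78%.

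In ATAC, windows with a lost region numbered 11 in Utx KO (45.9% of all gene windows), 14 with Smarca4 gRNA in Utx WT (32.1%), 10 with Smarca4 gRNA in Utx KO (29.7%) and 9 with Chd4 gRNA (50.6%). In Utx KO 1 window, that of Tcf4, had a gained region, against 6.7%. Wide windows hold more regions and so have more chances of a loss: counted per region, the partners lost 14.8% of H3K4me1 regions, 14.5% of ATAC regions in Utx KO and 14.5% with Chd4 gRNA, all below the shares for all regions, while with Smarca4 gRNA in Utx WT they lost 10.1% against 8.17%, and with Smarca4 gRNA in Utx KO 9.20% against 11.1%.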

How the data were processed

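The submitters' processing notes name Bowtie, Bowtie2, SICER, MACS2 and mm10 (for set A Bowtie, MACS2 and mm10); which tool made which list, versions and thresholds are not given in the sources used here. The authors deposited 1 peak list per library: ChIP lists on a 200 bp grid with a whole-number count in column 4, and ATAC lists with start and end only, so width is the one other value. The 2 inputs were not used. Regions were merged over all libraries of an assay, and start coordinates are 1-based. The work ran under Python 3.11.15 with pandas 2.3.3, numpy 2.4.6 and scipy 1.17.1, and with matplotlib 3.10.9 for figures. The permutation and sign-flip tests were coded directly with numpy. Held regions were compared with two-sided exact permutation tests; lost and gained calls were set beside the same calls over all regions or gene windows, and the calling was tested on simulated data. Regions named are all lost or gained ones, those at starts and the strongest or widest per gene and assay; any other is said to be chosen later. Members, partner and marker lists and motifs were chosen with earlier results of these data known. Titles share replicate numbers between groups, but the labels do not say what a number marks and correlated deviations did not establish pairing, so the tests are unpaired; the Smarca4 comparison between genotypes alone used same-numbered differences.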

Additional observations from a re-analysis of the deposited data

How the results depend on the processing

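Of the recomputed values that answer a comparison, 49 moved, 8 reversed and the others kept their direction and size. With the widest or strongest 50% of each list, lost regions were 1 of 21 for H3K4me1, 2 for PU.1, 1 for Smarca4 gRNA in Utx WT and 6 for Chd4 gRNA, 1 was gained in Utx KO ATAC, the PU.1 difference in held regions was 1.33 and the genotype difference in the Smarca4 effect -0.5. With lists of equal length, lost regions were 3 (PU.1), 2 (Utx KO ATAC), 1 and 0 (Smarca4 gRNA in Utx WT and KO) and 0 (Chd4), gained were 2 (Utx KO ATAC) and 1 (Smarca4 gRNA in Utx WT), and the held-region differences reversed to 1.5, 0.5 and 1.0. Requiring 50% cover gave 2 lost and 1 gained for PU.1 and 1 lost for Smarca4 gRNA in Utx KO. Within 10 kb, lost regions were 1 (H3K4me1), 0 (PU.1, also 0 gained), 2 (Utx KO ATAC), 1 (Smarca4 gRNA in Utx KO) and 6 (Chd4); held differences reversed at Ldb1 for PU.1 (-0.67), at Gfi1 in Utx KO ATAC (1.0) and with Smarca4 gRNA in Utx WT (0.5), and at Lyl1 with Smarca4 gRNA in Utx KO (0.5). The H3K4me1 share within 10 kb was -0.19 at Lmo2, 0.20 at Lyl1 and -0.20 at Ldb1 (log2), and the PU.1 share -0.51 at Tal1, -0.064 at Lyl1, -0.15 at Ldb1, 0.16 at Gfi1 and 0.14 at Gfi1b, which was -0.021 over regions held by every library; these share alternatives were chosen after seeing the data. The cause of these shifts was not tested.

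Leaving out 1 library at a time, lost regions ranged from 4 to 7 for H3K4me1, 1 to 3 for PU.1, 4 to 12 for Utx KO ATAC, 2 to 7 and 3 to 5 for Smarca4 gRNA in Utx WT and KO (2 with all libraries) and 13 to 21 for Chd4; gained ones from 0 to 1, 2 to 3, 0 to 2, 0 to 1, 0 to 6 and 0 to 0. Held-region differences ranged from -7.5 to -5.5, -2.83 to 3.17, -10.5 to -5.5, -8.5 to -1.5, -7.5 to 2.5 and -25.0 to -17.0. The H3K4me1 share ranged from -0.97 to -0.82 at Tal1 and 0.68 to 1.10 at Gfi1, the PU.1 share from -0.43 to -0.27 and 0.21 to 0.28.

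The replicate block left each difference in held regions as it was, with an exact sign-flip p of 0.5 (H3K4me1, Utx KO ATAC and Chd4 gRNA) or 1; differences were -6.5, -0.33, -8, -5, -2.5 and -21. Deviations of same-numbered libraries correlated between -0.13 and 0.09, and at 0.35 over the 2 pairs of set A. ATAC depth is unknown, and list length limits every ATAC count.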
